A study of Sus scrofa with 46 samples.

Results

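The 9 genes described here are alpha-fetoprotein (AFP), transthyretin (TTR), glypican 3 (GPC3), DLK1, the RNA-binding proteins IGF2BP1, IGF2BP2 and IGF2BP3, LIN28B and, as the plasma protein of the later liver, albumin (ALB). They were taken by gene symbol from a table of 18440 genes in 46 piglet livers. Each symbol matched 1 row, and all 9 were among the 13780 genes that passed the filter on low counts. The piglets came from Danish Landrace × Danish Yorkshire sows inseminated with Duroc semen, were graded by eye at birth from head shape and related signs as normal-sized or intrauterine growth restricted (IUGR), and were euthanized at 72 h of age. In each class some piglets received an oral energy paste, Piggy Boost, and the others no treatment. This gave 11 untreated and 12 supplemented normal-sized piglets and 10 untreated and 13 supplemented IUGR piglets, with no genetic or drug model in any of them. Piglets of the different groups shared sows and were sampled over several weeks, but sow, week, weight and sex are not in the labels.

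In mammals the fetal liver secretes AFP as a major plasma protein of the fetus, and AFP transcription is shut down around birth while that of albumin goes on. Hepatoblasts, the fetal precursors of hepatocytes and bile duct cells, carry GPC3 and DLK1 on their surface. IGF2BP1 to IGF2BP3 bind and stabilise growth-related mRNAs such as that of IGF2, and LIN28B blocks the maturation of let-7 microRNAs, which otherwise repress several of these fetal genes.

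On Sscrofa11.1 the RefSeq annotation places ALB at chr8:69643427-69663152 and AFP just downstream of it at chr8:69677690-69698864, in the cluster that arose by duplication of an albumin-like gene. TTR lies at chr6:115496338-115503974, GPC3 at chrX:109536495-109973605 and DLK1 at chr7:121565844-121577493. IGF2BP1 lies at chr12:25196955-25244660, IGF2BP2 at chr13:123485619-123650050, IGF2BP3 at chr9:92104786-92272264 and LIN28B at chr1:71173291-71296131. All 9 are annotated as protein-coding, and the counts are over whole genes, with no split by exon or untranslated region.

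Levels are given as CPM, counts per 1e+06 of the library's TMM-adjusted total. They are not corrected for gene length, so a level is compared between livers and not between genes. Total counts were 15036565 to 19340207 per library. The libraries of 3 IUGR piglets, pig 38 (untreated) and pigs 39 and 46 (supplemented), stood apart from the rest: over all genes, log2 CPM in each of them correlated with the rest at a median of 0.765 to 0.843, while this median was 0.953 to 0.966 for the other 43. Summed erythroid markers were 1305 to 3104 CPM in these 3 and 155 to 2545 CPM in the other 43, over 14 genes, and summed macrophage markers were 1518 to 2213 CPM against 753 to 1577 CPM, over 10 genes. Summed hepatocyte markers other than ALB and TTR were 67089 to 99111 CPM against 67526 to 128119.6 CPM, and no gene of these 3 lists was at 0 in every library. The part of other cell types in the values below was not tested, and in bulk tissue fewer cells of a type and less RNA per cell cannot be told apart. Libraries were assigned to groups by the pig number above each column of the table. It is not certain that every number is above the column of its own pig, and the labels hold no sex, weight or litter to check it. The differences between groups therefore hold only if the numbers are right, while the levels over all livers and the correlations between genes do not use the groups.

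At 72 h of age AFP mRNA was still present in quantity in every liver. It took 0.45 to 2.33% of all counts and ALB 2.1 to 13.7%. Over the 46 livers the level of AFP was 4254 to 26258 CPM (median 15311), and that of ALB 19868 to 141929.6 CPM (median 96058). The count of ALB was 2.28 to 11.7 times that of AFP in the same liver (median 6.08), with no correction for gene length. Their spread between livers was ordinary: the SD of log2 CPM was 0.469 for AFP and 0.613 for ALB, where 52.6% and 72.5% of the 13780 genes had a smaller SD and the median gene 0.454.

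By group, AFP was 10867 to 22779.6 CPM (median 12859) in untreated normal-sized piglets and 10373 to 26258 CPM (median 17204) in untreated IUGR piglets. It was 10253 to 22396 CPM (median 14638) in supplemented normal-sized and 4254 to 22308 CPM (median 15679) in supplemented IUGR piglets. The highest AFP level of all was in pig 43, an untreated IUGR piglet, and the lowest levels were those of pigs 39 and 46, which lay below the lowest of the other 43 livers (10253 CPM). All groups overlapped.

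ALB was 74068 to 115451 CPM (median 95744) in untreated normal-sized and 29952 to 141929.6 CPM (median 81119) in untreated IUGR piglets. In supplemented piglets it was 70381 to 126411 CPM (median 111693) with normal size and 19868 to 135794 CPM (median 109765) with IUGR. The 4 lowest ALB levels were those of pigs 39, 46, 5 and 38, all labelled IUGR, at 19868, 29362, 29952 and 31581 CPM, and the next liver up stood at 61324 CPM. The highest level, in pig 10, was also that of an IUGR piglet, so the IUGR groups ran past the normal-sized groups at both ends. Pig 5 was low in ALB without standing apart across all genes, and its TTR level, 1289 CPM, was the lowest of all 46. The other 2 genes of the albumin cluster that were measured, AFM, which encodes the vitamin E carrier afamin, and GC, which encodes vitamin D-binding protein, were low in pigs 38, 39 and 46 too. AFM was 163 to 195 CPM there and 371 to 1283 CPM in the other 43, and GC was 1171 to 2053 CPM against 3843 to 7328 CPM.

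TTR, the carrier of thyroxine and of retinol-binding protein in plasma, stayed within 1289 to 3866 CPM (median 2449) over the 46 livers. Its highest levels were in pigs 46 and 39, at 3866 and 3292 CPM, where ALB and AFP were lowest. In untreated piglets it was 1824 to 3183 CPM (median 2664) with normal size and 1289 to 3053 CPM (median 2519.9) with IUGR. GPC3, a heparan sulfate proteoglycan of the cell surface, was one of the steadiest genes measured. Its level was 608 to 1314 CPM (median 816), its SD of log2 CPM was 0.228, and 5.75% of all tested genes had a smaller SD. In untreated piglets GPC3 was 609 to 1033 CPM (median 810.1) with normal size and 690.1 to 1314 CPM (median 876) with IUGR, the highest value being that of pig 38. Without pigs 38, 39 and 46 its SD was 0.2, and 15.6% of genes were steadier.

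DLK1, an imprinted gene whose membrane protein is related to the Notch ligands, was at the other extreme. It ranged from 0.526 CPM in pig 66 to 113 CPM in pig 46, a 215-fold range, and its SD of log2 CPM was 1.66, wider than in 99.5% of the tested genes. The lowest levels rested on few reads, with 9 counts in pigs 48 and 66 and 13 in pigs 34 and 59, while pig 46 had 2071. The SD was as wide without the libraries that stood apart, at 1.61 over the other 43, again above 99.5% of genes. Within groups DLK1 was 0.59 to 42.4 CPM (median 6.1) in untreated normal-sized, 0.526 to 20 CPM (median 6.36) in supplemented normal-sized, 1.56 to 40.4 CPM (median 10.9) in untreated IUGR and 0.856 to 113 CPM (median 10.1) in supplemented IUGR piglets. High and low livers were found in every group.

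Of the mRNA-binding proteins, IGF2BP3 had a tight distribution outside the 3 libraries that stood apart. Its level was 45 to 66.7 CPM (median 62.6) in untreated normal-sized and 49.6 to 70.5 CPM (median 58.6) in supplemented normal-sized piglets. It was 20.5 to 57.4 CPM (median 48.9) in untreated IUGR and 7.14 to 64.6 CPM (median 45.9) in supplemented IUGR piglets. Pigs 46, 39 and 38 had 7.14, 18.1 and 20.5 CPM, all below the lowest of the other 43 livers (30 CPM, pig 53). The SD of log2 CPM was accordingly 0.565 over 46 livers and 0.238 over 43. Among the other 43, the IUGR and normal-sized livers overlapped, with values up to 57.4 CPM in untreated IUGR and down to 45 CPM in untreated normal-sized piglets.

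IGF2BP1 was 13.1 to 30.8 CPM (median 19.8) in untreated normal-sized and 16.7 to 46.7 CPM (median 22.9) in untreated IUGR piglets. With the supplement it was 13.6 to 31.1 CPM (median 23.6) and 13.4 to 38.3 CPM (median 22). The top values, 46.7 and 38.3 CPM, were those of pigs 38 and 39, in which IGF2BP3 was low. IGF2BP2, which unlike its paralogs remains expressed in many adult tissues, stayed at 7.41 to 18.9 CPM (median 13.6) with an SD of log2 CPM of 0.297, and its groups overlapped almost throughout. LIN28B rested on few reads, with 12 to 110 counts per library. Its level was 1.57 to 6.38 CPM (median 2.65) in untreated normal-sized, 2 to 4.72 CPM (median 3.86) in supplemented normal-sized, 1.43 to 4.02 CPM (median 2.85) in untreated IUGR and 0.654 to 5.2 CPM (median 3.23) in supplemented IUGR piglets. Both its highest values, 6.38 and 6.37 CPM, were in untreated normal-sized piglets, and its lowest was in pig 46.

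**Figure D1:**
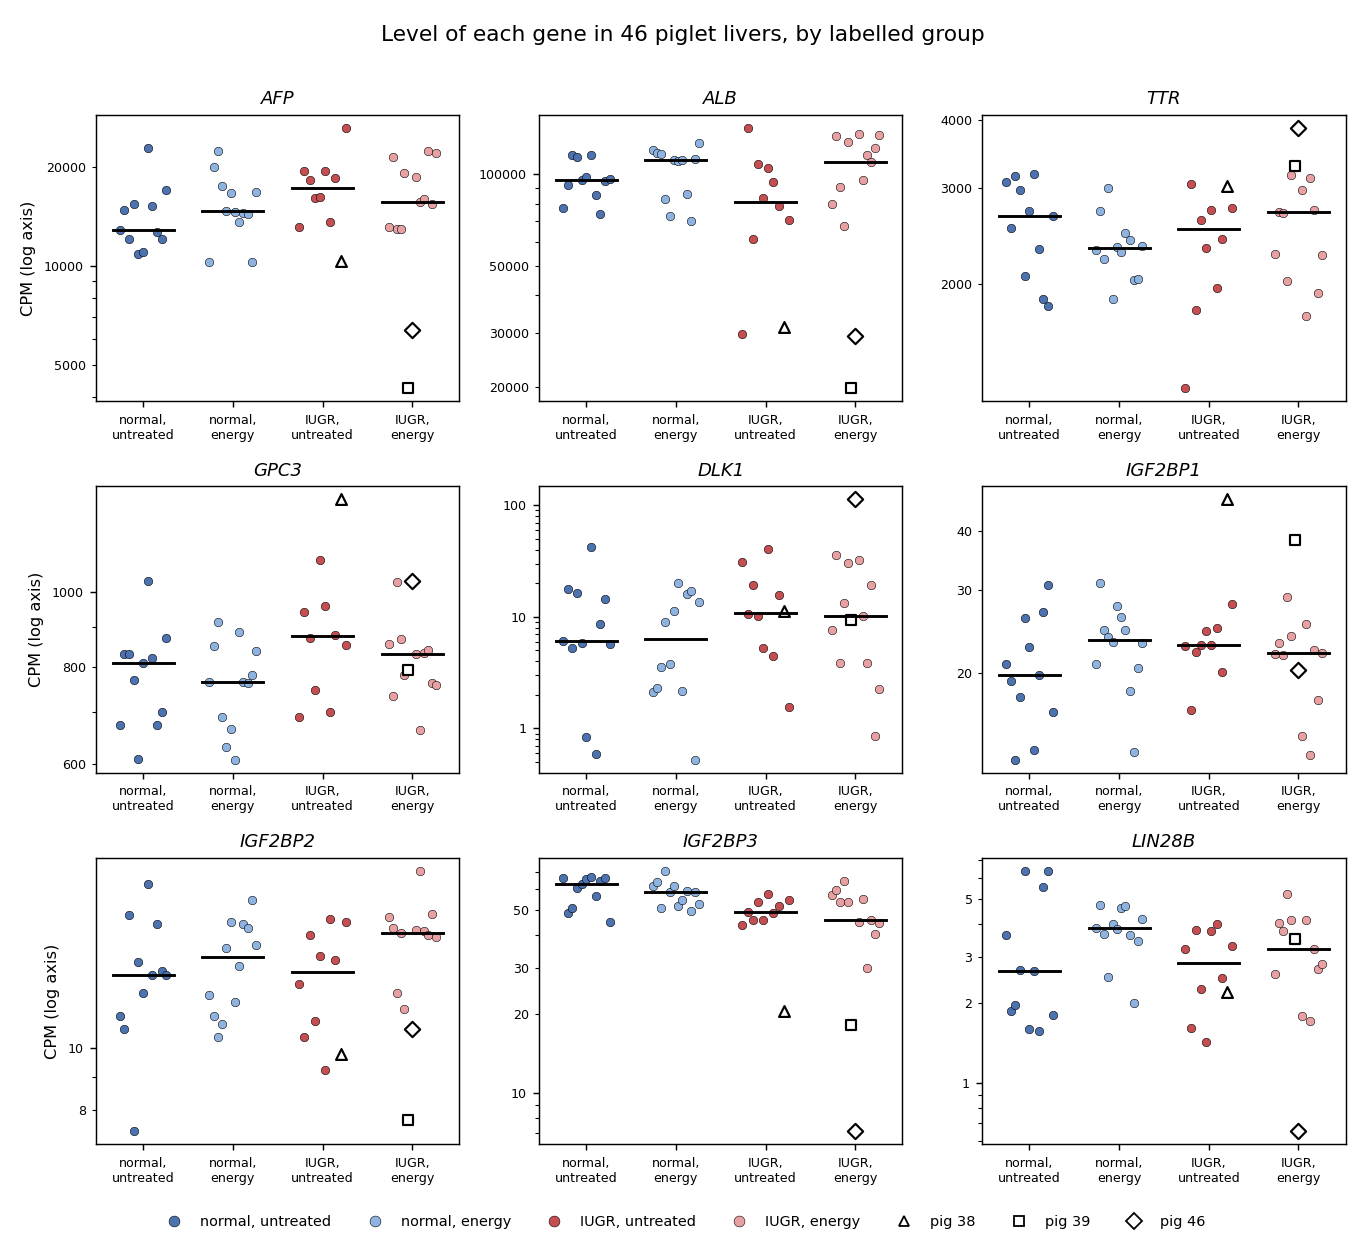
Level of each of the 9 genes in CPM (log axis) in the 46 livers, by labelled group; each point is 1 liver, the bar is the group median, and open symbols are pigs 38, 39 and 46. The groups overlap for every gene, DLK1 spans 0.526 to 113 CPM, and the open symbols lie below all other livers for IGF2BP3.

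The first comparison asked whether these genes differed between untreated IUGR and normal-sized piglets. None of the 9 passed an adjusted p of 0.05 in edgeR's quasi-likelihood test with Benjamini-Hochberg adjustment over all genes, and none had an unadjusted p under 0.05, where 0.0435% of all 13780 genes passed the first threshold and 12.5% the second. That first share is 6 genes, and with 1 library left out the number ran from 1 (without pig 5, 20 or 26) to 114 (without pig 42). In this fit over all 46 livers GPC3 came closest, with a log2 difference of 0.21 (SE 0.10, unadjusted p = 0.0509, adjusted p = 0.4). Without pig 38 that difference was 0.14, and without pigs 38, 39 and 46 it was 0.13 (edgeR unadjusted p = 0.157). For IGF2BP1 the log2 difference was 0.28 (SE 0.16, adjusted p = 0.473) and 0.14 without pig 38. For IGF2BP3 it was -0.33 (SE 0.19, unadjusted p = 0.0918, adjusted p = 0.481) and -0.24 without pig 38. Without pigs 38, 39 and 46 the IGF2BP3 difference was -0.24 with a smaller SE (0.10, edgeR unadjusted p = 0.0159, adjusted p = 0.192).

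The differences of AFP and ALB in untreated piglets were of opposite sign, and neither passed the test. AFP differed by 0.26 on the log2 scale (95% confidence interval -0.12 to 0.65, adjusted p = 0.585) and ALB by -0.26 (-0.73 to 0.21, adjusted p = 0.676). Both values moved with single libraries. With 1 left out, AFP ran from 0.18 without pig 43 to 0.36 without pig 42, and ALB from -0.39 without pig 10 to -0.15 without pig 5. Without pigs 38, 39 and 46 AFP differed by 0.33 (edgeR unadjusted p = 0.0254, adjusted p = 0.234) and ALB by -0.16 (adjusted p = 0.664). TTR differed by -0.11 (-0.38 to 0.17), IGF2BP2 by -0.04 (-0.31 to 0.23) and LIN28B by -0.22 (-0.75 to 0.31). For DLK1 the interval was widest, at 0.42 (-0.86 to 1.69), and the value moved from 0.13 without pig 26 to 0.89 without pig 42.

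In supplemented piglets, IUGR against normal size again gave no member past an adjusted p of 0.05, against 0.00726% of all genes. DLK1 and IGF2BP3 had an unadjusted p under 0.05, 2 of 9 genes, against 16.7% of all genes. DLK1 differed by 1.36 on the log2 scale (SE 0.59, unadjusted p = 0.0268, edgeR adjusted p = 0.262), and by 0.73 without pig 46, whose level was the highest of all. IGF2BP3 differed by -0.39 (SE 0.18, unadjusted p = 0.0329, edgeR adjusted p = 0.27). Without pigs 38, 39 and 46 it differed by -0.22 (SE 0.09, unadjusted p = 0.021, adjusted p = 0.735). AFP and ALB differed by 0 (interval -0.36 to 0.35) and -0.09 (-0.52 to 0.34). TTR differed by 0.19, GPC3 by 0.12, LIN28B by -0.28, IGF2BP2 by 0.07 and IGF2BP1 by -0.04, each within an interval that held 0.

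The energy paste was compared with no treatment within each size class. No member passed an adjusted p of 0.05, or an unadjusted p of 0.05, in either class. Of all genes, 0% passed the adjusted threshold in normal-sized and 0.029% in IUGR piglets, and 8.55% and 4.54% the unadjusted one. In normal-sized piglets the log2 differences were 0.12 for AFP (SE 0.18), 0.10 for ALB (SE 0.22) and -0.41 for DLK1 (SE 0.61), and in IUGR piglets -0.15 for AFP (SE 0.18), 0.27 for ALB (SE 0.23) and 0.53 for DLK1 (SE 0.61). The values of DLK1 rested on single livers: without pig 42 the difference in normal-sized piglets was 0.07, and without pig 46 that in IUGR piglets was -0.10. The other 6 genes differed by -0.14 to 0.20 in normal-sized and by -0.16 to 0.16 in IUGR piglets. The test of whether the IUGR difference itself changed with the supplement likewise passed for none of the 9 (0% of all genes at the adjusted and 6.66% at the unadjusted threshold), with TTR at 0.30 (SE 0.18) and DLK1 at 0.94 (SE 0.86), or 0.31 without pig 46.

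**Figure D2:**
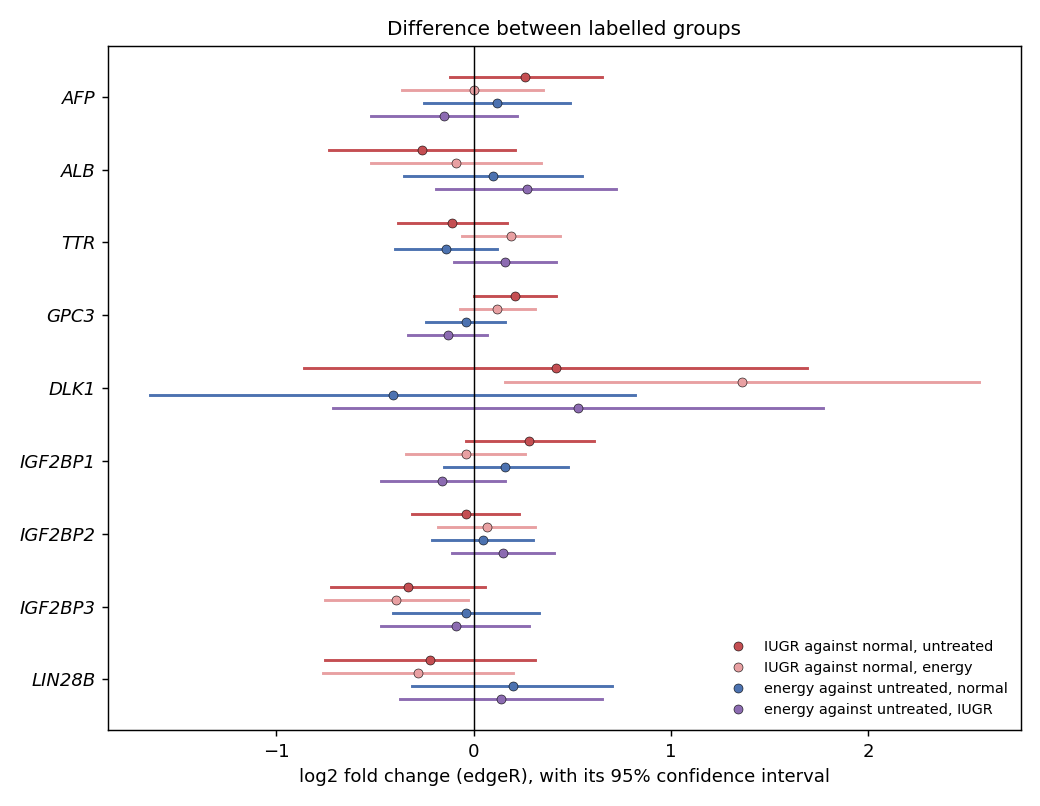
log2 fold change of each gene between labelled groups, from edgeR, with its 95% confidence interval, for IUGR against normal-sized piglets without and with the supplement and for supplement against no treatment in each class. Most intervals hold 0. Those of DLK1 and IGF2BP3 for IUGR in supplemented piglets do not, with adjusted p of 0.262 and 0.27.

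Genes that work with these 9 were read first in untreated piglets, where no gene of these lists passed an adjusted p of 0.05. Of 13 plasma carrier proteins other than ALB and TTR, 6 had a positive and 7 a negative log2 difference between untreated IUGR and normal-sized piglets. Of the 13, 3 had an unadjusted p under 0.05, where 12.5% of all genes did. These were SERPINA1, which encodes the protease inhibitor alpha-1-antitrypsin (0.78, SE 0.23, adjusted p = 0.116), SERPINA6, the corticosteroid carrier (0.61, SE 0.22, adjusted p = 0.226), and AHSG, a fetal plasma glycoprotein in several species (0.33, SE 0.16, adjusted p = 0.374). Of 15 transcription factors known from other species to act on AFP or ALB, 7 were positive and 8 negative. An unadjusted p under 0.05 was found for 3 of the 15, among them CEBPB (0.77, SE 0.27) and FOXA2 (0.45, SE 0.17), against 12.5% of all genes. ZHX2, which represses AFP after birth in the mouse, differed by -0.05 (SE 0.22), and ZBTB20, another repressor of AFP in the mouse, by -0.20 (SE 0.15).

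Of 10 tested genes of the LIN28 and let-7 pathway, 5 were positive and 5 negative. An unadjusted p under 0.05 was found for 1 of the 10, against 12.5% of all genes. This was ARID3A (0.41, SE 0.12, adjusted p = 0.101). Its protein binds DNA and its mRNA is known in human cells as a let-7 target. HMGA2, a classic let-7 target, was too low to be tested. Among 10 tested imprinted genes of fetal growth, 7 were positive and 2 had an unadjusted p under 0.05, against 12.5% of all genes. The fetal growth factor IGF2, whose mRNA is bound by the IGF2BP proteins, differed by 0.45 (SE 0.18, unadjusted p = 0.0148, adjusted p = 0.272) and its receptor for degradation, IGF2R, by 0.53 (SE 0.17, unadjusted p = 0.00279, adjusted p = 0.15). Of 8 tested glypicans and enzymes of their heparan sulfate chains, 6 were positive, with GPC2 at 0.65 (SE 0.29) and HS2ST1 at 0.19 (SE 0.09). Of the 8, 2 had an unadjusted p under 0.05, against 12.5% of all genes. The median log2 difference was -0.06 for the carrier proteins, -0.02 for the transcription factors, -0.03 for the LIN28 and let-7 pathway, 0.29 for the imprinted genes and 0.12 for the glypicans, against 0.01 for all genes.

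In supplemented piglets none of these genes passed the adjusted threshold either, and most of those named above had smaller values. SERPINA1 had a mean of 4581 CPM in IUGR and 4481 CPM in normal-sized supplemented piglets (log2 difference 0.03, SE 0.21), against 6904 and 4015 CPM without the supplement. IGF2 had 5718 and 5246 CPM (0.12, SE 0.16), against 7229.7 and 5275 CPM. IGF2R differed by 0.16 (SE 0.16), SERPINA6 by 0.16 (SE 0.20), ARID3A by 0.12 (SE 0.11), FOXA2 by 0.13 (SE 0.16) and CEBPB by 0.42 (SE 0.25), while AHSG stood at 0.30 (SE 0.15). The IUGR difference of SERPINA1 changed by -0.75 with the supplement (SE 0.31, unadjusted p = 0.0191, edgeR adjusted p = 0.64) and that of IGF2 by -0.33 (SE 0.24, adjusted p = 0.894), so neither change passed the test. An unadjusted p under 0.05 was found for 3 of 13 carrier proteins, 1 of 15 transcription factors, 2 of 10 genes of the LIN28 and let-7 pathway, 4 of 10 imprinted genes and 3 of 8 glypicans, against 16.7% of all genes. The medians were 0.16, 0, 0.02, 0.11 and 0.15, against 0.02 for all genes.

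Whether the fetal genes stood high and low in the same livers was asked over all 46, with Pearson's r and Spearman's rho of log2 CPM for each of the 36 pairs and permutation p-values adjusted over the 36. By both measures 7 pairs passed an adjusted p of 0.05, and 4 of them were positive. The 9 genes did not form a single block. AFP and ALB went together with r = 0.65 (adjusted p = 7.20e-04) and rho = 0.44 (adjusted p = 0.0233). LIN28B went with IGF2BP1 (r = 0.48, rho = 0.64, adjusted p = 0.00511 and 3.60e-04) and with IGF2BP3 (r = 0.54, rho = 0.46). TTR went with GPC3 (r = 0.45, rho = 0.42).

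The 3 negative pairs set TTR and GPC3 against LIN28B and TTR against IGF2BP2. TTR and LIN28B gave r = -0.47 and rho = -0.44, GPC3 and LIN28B r = -0.49 and rho = -0.40, and TTR and IGF2BP2 r = -0.42 and rho = -0.38. DLK1 was past the threshold with none of the other 8, its rho values running from -0.13 to 0.19. AFP, the marker of the fetal liver, had a rho of -0.10 with IGF2BP1, -0.05 with IGF2BP3 and -0.07 with LIN28B.

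**Figure D3:**
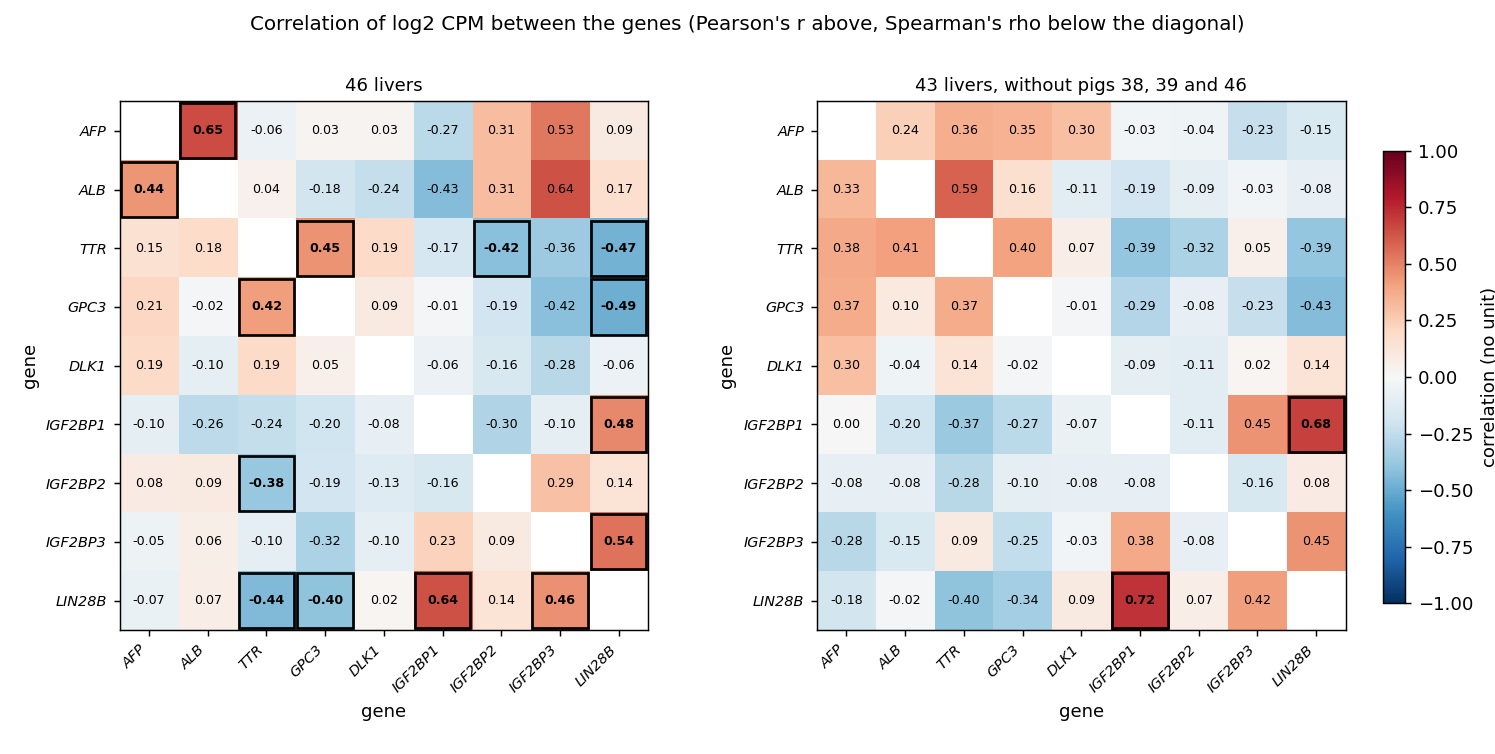
Correlation of log2 CPM for each pair of the 9 genes, Pearson's r above and Spearman's rho below the diagonal, over 46 livers (left) and over 43 (right). Boxed pairs passed an adjusted permutation p of 0.05 by both measures: 7 pairs over 46 livers, and IGF2BP1 with LIN28B over 43.

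These correlations depended on pigs 38, 39 and 46. Over the other 43 livers, 1 of the 36 pairs was past the threshold by both measures, IGF2BP1 with LIN28B, at r = 0.68 and rho = 0.72. Its permutation p was 1e-05 for both, the smallest that 100000 permutations can give, and 3.60e-04 after adjustment. The same pair was the 1 past the threshold when, for each pair, the 2 livers farthest from the median of 1 of its genes were left out. For this pair they were pigs 38 and 14, the farthest for IGF2BP1, and it gave r = 0.58 and rho = 0.69. Of 13779 genes, 15 had a higher rho with IGF2BP1 than LIN28B had over the 46 livers. In the other direction, 179 had a higher rho with LIN28B than IGF2BP1 had. In the plot of IGF2BP1 against LIN28B, pigs 38 and 39 lay above the band formed by the other livers, with high IGF2BP1 at middling LIN28B.

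AFP and ALB gave r = 0.24 (adjusted p = 0.301) and rho = 0.33 over the 43 livers. The 2 lowest livers for both genes, pigs 39 and 46, were among those left out. ALB and IGF2BP3 gave r = 0.64 over 46 livers with a rho of 0.06, and r = -0.03 over 43, so that relation rested on 3 livers. For ALB and TTR it was the reverse. Their r was 0.04 over 46 livers, where pigs 38, 39 and 46 combined low ALB with high TTR, and 0.59 (adjusted p = 0.00108) over 43, with rho = 0.41 (adjusted p = 0.0629). Pig 5, lowest in TTR and low in ALB, lay at the end of that trend, and without it as well r was 0.42. IGF2BP1 and IGF2BP3 gave r = -0.10 over 46 and 0.45 over 43. With the mean of each labelled group removed, 7 pairs passed again, all of them among the 7 over the 46 livers.

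**Figure D4:**
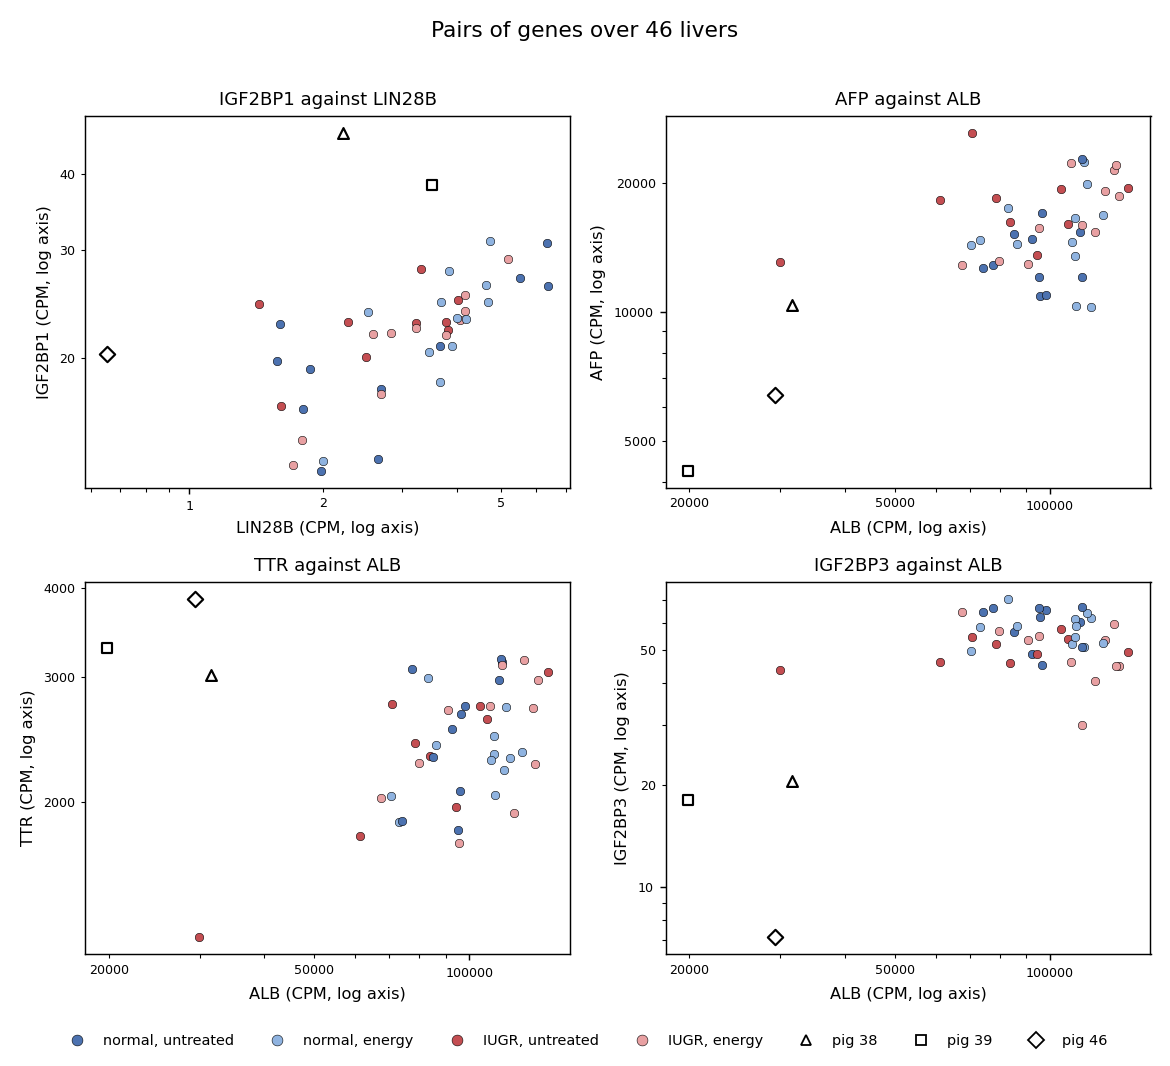
Level in CPM (log axes) of IGF2BP1 against LIN28B, and of AFP, TTR and IGF2BP3 against ALB, with 1 point for each of the 46 livers and open symbols for pigs 38, 39 and 46. IGF2BP3 with ALB gives r = 0.64 with the open symbols and -0.03 without them, and TTR with ALB 0.04 with them and 0.59 without.

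Some of the 9 genes also moved with measures shared by whole libraries. In each library the median log2 deviation of the genes of longest genomic span (85881 bases or more) was set against that of the shortest (8827 bases or less), with 2756 genes at the long end. LIN28B had a rho of 0.72 with this measure over 46 livers and 0.73 over 43, IGF2BP1 0.42 and 0.60, TTR -0.69 and -0.63, and GPC3 -0.36 and -0.29. AFP and ALB had a rho of 0.04 and 0.06 over 46 livers, and of -0.17 and -0.15 over 43. With the summed level of 75 ribosomal protein genes, LIN28B had a rho of -0.59, IGF2BP1 -0.42 and TTR 0.49, and the library measures themselves went against each other with a rho of -0.78. These are descriptions over livers that share depth and scaling. LIN28B (122841 bases), GPC3 (437111 bases), IGF2BP2 (164432 bases) and IGF2BP3 (167479 bases) are themselves among the genes of long span. TTR (7637 bases) is among those of short span, while IGF2BP1 (47706 bases) is in neither set. IGF2BP2 had a rho of 0.39 over 46 livers and 0.27 over 43 with this measure of span, and IGF2BP3 0.29 and 0.13. GPC3 has a negative rho despite its long span.

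With the measure of span regressed out of every gene, LIN28B and IGF2BP1 kept r = 0.67 and rho = 0.68. LIN28B and IGF2BP3 then had r = 0.03, TTR and LIN28B -0.11, GPC3 and LIN28B -0.27, and ALB and TTR 0.65. With the ribosomal protein sum regressed out, LIN28B and IGF2BP1 had r = 0.35 (adjusted p = 0.0648) and rho = 0.49, and AFP with ALB and IGF2BP3 with LIN28B were the 2 pairs past the threshold. Both adjustments were chosen after the data were seen.

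**Figure D5:**
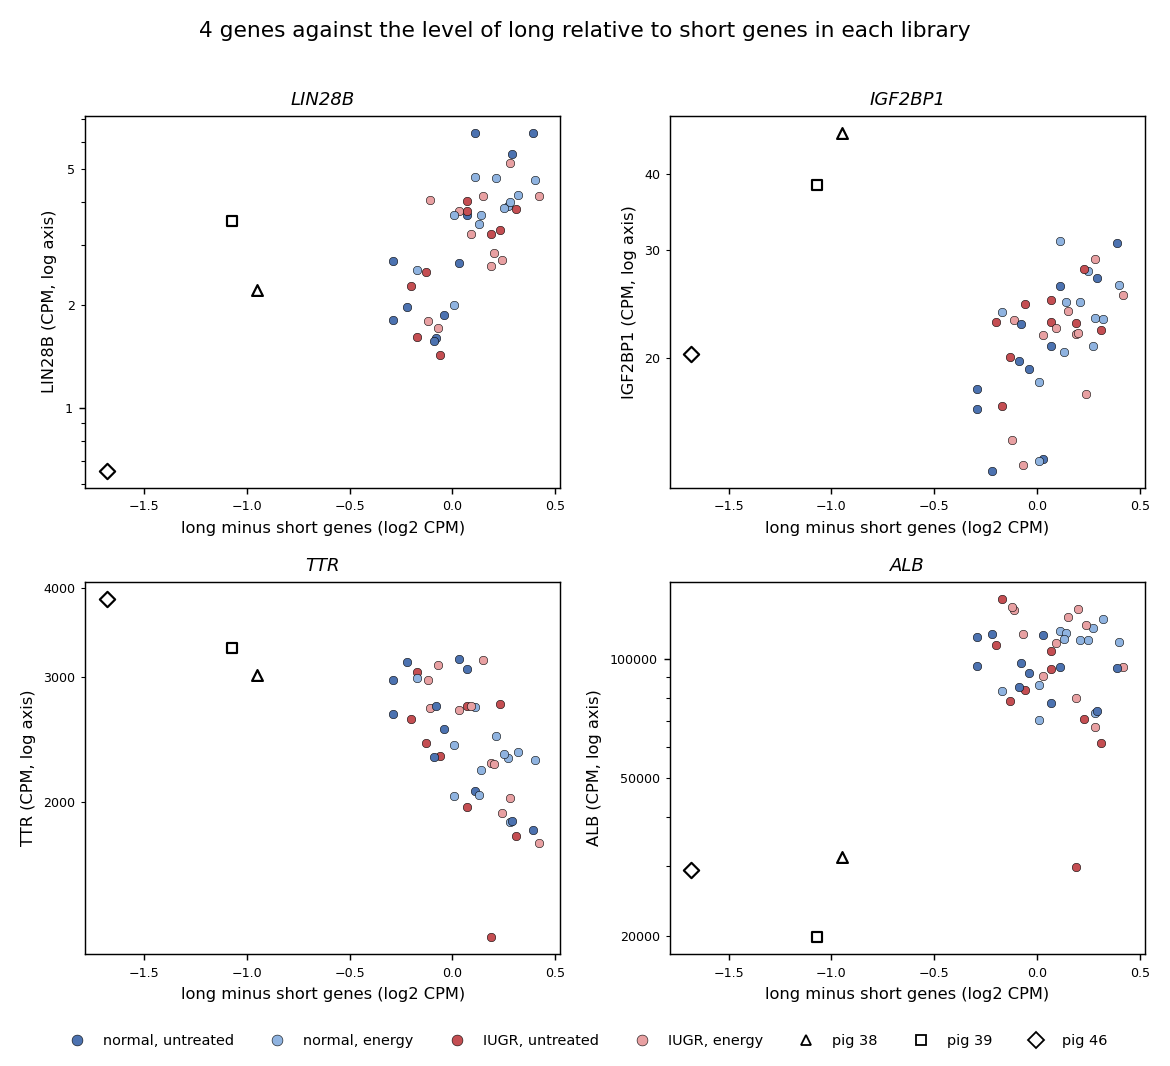
Level in CPM (log axis) of LIN28B, IGF2BP1, TTR and ALB against the median log2 level of long minus short genes in the same library, with 1 point for each of the 46 livers and open symbols for pigs 38, 39 and 46. Those 3 lie at -1.68 to -0.95 and the other 43 between -0.29 and 0.42, where LIN28B is higher and TTR lower towards the right.

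The genes closest to each of the 9 in pattern were ranked by rho over the 46 livers among 13779 others, as a description. TTR lay closest to AMBP, which encodes a plasma protein precursor of the liver (rho 0.82), ASGR2, a subunit of the asialoglycoprotein receptor of hepatocytes (0.80), and GAMT, the last enzyme of creatine synthesis (0.80). GPC3 lay closest to F2 (prothrombin, 0.70), PROC (protein C, 0.69) and ITIH2 (0.67), all secreted by hepatocytes, and was lowest with SGO2 and CENPI (-0.64 and -0.62), which act at the centromere in dividing cells. ALB was close to CAT, the peroxisomal enzyme catalase (0.72), to PTGR2 (0.77) and to ARL3 (0.72), and AFP to NIPSNAP2 (0.71), a mitochondrial protein. For ALB and AFP, the rho with AHSG was -0.32 and 0.35 and with the albumin cluster gene AFM 0.60 and 0.33.

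DLK1 had few close partners. The closest, DEGS2, a sphingolipid desaturase gene on chromosome 7 whose annotated end lies 434 kb from DLK1, had a rho of 0.67 over 46 and over 43 livers, and next came PARVB at 0.52. GRB10, an imprinted brake on insulin receptor signalling, had 0.49, and the lowest was LOC110257905 on chromosome Y, at -0.50. IGF2BP3 had strong neighbours both ways, with ENPP2, which encodes the secreted enzyme autotaxin, at 0.80 and YTHDF1, a reader of methylated adenosine in mRNA, at -0.80. Over 43 livers those values were 0.76 and -0.75. IGF2BP2 was highest with SRGAP1 (0.69) and lowest with FGFR4, the receptor of FGF19 in hepatocytes (-0.72). LIN28B was highest with RIOK3 (0.77) and SEC63 (0.75) and lowest with TRIR (-0.73), and IGF2BP1 was highest with KIAA0100 (0.73) and lowest with ARPC2, a subunit of the actin-branching Arp2/3 complex (-0.71).

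Among cell type and cell cycle lists, IGF2BP3 had a positive rho with 11 of 12 cell cycle genes (median 0.45), and with 12 of 12 (median 0.41) over 43 livers. GPC3 and DLK1 had a negative rho with all 12 (medians -0.35 and -0.28), and AFP with 11 of 12 (median -0.11). With 12 erythroid genes, AFP and GPC3 were positive for all 12 (medians 0.31 and 0.38) and IGF2BP3 negative for all 12 (median -0.38). TTR was positive with all 13 other plasma carrier proteins (median 0.43), among them RBP4, with which its protein circulates (0.67), and APOA2 (0.80), while ALB was positive with 6 of the 13. The median rho over all genes was 0 for AFP and TTR and -0.01 for GPC3 and IGF2BP3. In untreated piglets 12 of 12 erythroid genes had a positive log2 difference between IUGR and normal size (median 1.07), 9 of them with an unadjusted p under 0.05, against 6.45% of all genes in that direction. The 12 cell cycle genes all had a negative one (median -0.69), 7 of them with an unadjusted p under 0.05, against 6.09%. Genes of 1 list can rise and fall together, so these are not counts of independent genes. In the untreated IUGR group the summed erythroid markers of pig 38 were 2722 CPM, against a group median of 932 CPM. No comparison of these lists without pig 38 is given. In supplemented piglets the counts were lower. There 8 of 12 erythroid genes were positive (median 0.26), 1 of them with an unadjusted p under 0.05, and 8 of 12 cell cycle genes were negative (median -0.13), none with an unadjusted p under 0.05, against 16.7% of all genes. Untreated normal-sized piglets had the highest mean of the 4 groups for the replication genes PCNA (54.4 CPM, against 28.2 to 32.5 CPM) and TYMS (71.6 CPM, against 33.6 to 40.3 CPM). PCNA and TYMS were picked from the 12 cell cycle genes, which did not all differ this much. The mean of MKI67 was highest in supplemented IUGR piglets, at 192 CPM against 169.6 CPM in untreated normal-sized ones. In untreated and supplemented normal-sized piglets CCNB1 had 40.4 and 40.2 CPM, and TOP2A 145 and 138 CPM. The change of the IUGR difference with the supplement was positive for 11 of the 12 cell cycle genes, 6 of them with an unadjusted p under 0.05, against 6.66% of all genes. None passed the adjusted threshold, and the part of these cells in the levels of the 9 genes was not tested.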

How the data were processed

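Liver RNA of 46 piglets was sequenced by the authors as paired-end reads, mapped to Sscrofa11.1 with Bowtie2, and deposited as an estimated count per gene and library. Of the deposited estimated counts 85.9% are whole numbers, with no scaling for depth or gene length, and no label or methods text says which program made the counts. DESeq2 was the authors' own test.

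Counts were rounded. In edgeR 4.0.16 (R 4.3.3), libraries were scaled by TMM and filtered with filterByExpr (minimum count 10), and 13780 of 18440 genes were tested by the quasi-likelihood F test (robust) in 1 fit with a mean per group. P-values were adjusted by Benjamini-Hochberg and called under 0.05. Standard errors were derived from the F statistic. The test code was checked on simulated data. Correlations used log2 CPM with a prior count of 2 and 100000 two-sided permutations, with adjustment over the 36 pairs. All 18440 gene identifiers matched the RefSeq annotation of Sscrofa11.1. Every column was mapped to a piglet by its heading. Total counts of 15036565 to 19340207 bound counting error only, and p-values measure the spread between piglets of a group, some of which shared a sow.

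The 9 genes and all gene lists were chosen with earlier results of these data known. Besides the 9, the text names AFM and GC, for each gene the 5 genes with the highest and the 3 with the lowest rho, and in each list up to 4 genes with the smallest p in untreated piglets; ZHX2, ZBTB20, HMGA2 and the list genes given with a rho were added after their values were seen. The alternatives were DESeq2 1.42.0 and its size factors, limma 3.58.1 (voom with sample weights), no filter, the groups compared alone, each library left out in turn, total counts in place of TMM, group means removed, a prior count of 0.5 and leaving out the 2 farthest libraries. Leaving out pigs 38, 39 and 46, or pig 5 with them, and regressing out ribosomal protein level or gene span were prompted by the data. Some of the genes these rules select are not reported here.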

Additional observations from a re-analysis of the deposited data

Results flagged for a closer look

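In untreated IUGR piglets, the only group of 10 or fewer, pig 38 lay apart from the other 9 for 2 of the 9 genes: the gap to its nearest neighbour was a larger share of the group's range than Dixon's critical value at 95% allows. Its IGF2BP1 level was 46.7 CPM, against 28 CPM in the next liver, a gap of 0.626 of the range. Its IGF2BP3 level was 20.5 CPM, against 43.7 CPM in the next, a gap of 0.63 of the range. Chance alone marks about 1 in 20 such groups, and the library of pig 38 stood apart across all genes.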

How the results depend on the processing

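No member passed an adjusted p of 0.05 in any of the 5 comparisons by edgeR, DESeq2 or limma voom, with another scaling, filter or choice of groups, without pigs 38, 39 and 46, or with any single library left out. Unadjusted p-values moved more. In untreated piglets limma voom gave 0.0345 for AFP and 0.0248 for IGF2BP3, and edgeR on those groups alone 0.0954 and 0.0193. In supplemented piglets limma voom gave 0.00517 for IGF2BP3 and 0.305 for DLK1, and edgeR on those groups alone 0.0689 and 0.0337. Over all genes, the count called in untreated piglets was 6 in edgeR, 2 with DESeq2 size factors, no filter or those groups alone, 159 in DESeq2, 167 in limma voom and 199 without the 3 pigs, and with 1 library left out it ran from 1 (without pig 5, 20 or 26) to 114 (without pig 42), moving by over 1.5 times for 42 of 46 libraries; the cause was not tested. Several values changed sign. The DLK1 difference between supplement and no treatment in IUGR piglets, 0.53, was -0.20 in limma voom, -0.09 without the 3 pigs and -0.10 to 0.84 with 1 library left out, and that in normal-sized piglets, -0.41, ran from -0.60 to 0.07. The DLK1 interaction of 0.94 was -0.20 in limma voom, and AFP with against without supplement in IUGR piglets was 0.02. The difference of IGF2BP2 in untreated piglets was 0.01 in limma voom and -0.10 to 0.02 with 1 library left out. That of ALB in supplemented piglets was 0.03 in limma voom and 0.08 without the 3 pigs, and with 1 library left out that of AFP ran from -0.07 to 0.07 and that of IGF2BP1 from -0.13 to 0.01. The r of ALB and TTR was -0.13 with total counts, and that of ALB and IGF2BP3 -0.03 without pigs 38, 39 and 46 and -0.22 without pig 5 as well. Of the 36 pairs, 7 passed by both measures, also with DESeq2 size factors, a prior count of 0.5 or group means removed, and 6 with total counts or with gene span regressed out (5 and 2 of them among the 7). The count was 1 without pigs 38, 39 and 46, 1 without pig 5 as well, 1 without the 2 farthest libraries, and 2 with the ribosomal protein sum regressed out. LIN28B, at 12 to 110 counts per library, and the lowest DLK1 values, at 9 to 13, are limited by depth. No paired analysis was possible because no pig number occurs in more than 1 group and the labels give no litter.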

Other observations

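The share of counts in the 10 most abundant genes was 20 to 30.1% per library, and its rho over the 46 livers was 0.70 with ALB and 0.68 with AFP. ALB is itself among the most abundant genes, so this measure holds part of it. IGF2BP2 was the gene of the 9 with the largest rho with pig number, 0.40 over 46 livers and 0.47 over 43, where the other 8 lay between -0.20 and 0.06 over 46. The labels do not say what order the pig numbers follow. GPC3 had a rho of 0.42 and TTR of 0.38 with the total count of the library, and LIN28B of -0.35 and IGF2BP3 of -0.34.

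With 10 macrophage markers, IGF2BP1 had a negative rho for all 10 (median -0.37, and -0.46 over 43 livers) and IGF2BP2 a positive one for 9 of 10 (median 0.15, and 0.29 for all 10 over 43). IGF2BP1 was not alone in this, as IGF2BP3 and LIN28B were each positive with 1 of the 10 (medians -0.41 and -0.31). IGF2BP2 was also positive with all 9 endothelial markers (median 0.23), and DLK1 and LIN28B each with 8 of the 9 (medians 0.22 and 0.11). Among the partners of LIN28B, the uridylyltransferase TUT4, which acts with LIN28 on let-7 precursors in human and mouse cells, had a rho of 0.66 with LIN28B and DICER1, which cuts those precursors, 0.58. TUT7, a paralog of TUT4, had 0.10. These were picked after their values were seen: over the whole list of 10 tested genes of the LIN28 and let-7 pathway, the median rho with LIN28B was 0.04 and 5 were positive. The hepatocyte factor FOXA1 had a rho of 0.63 with IGF2BP3 and FOXA2 of -0.61 (0.57 and -0.53 over 43 livers). Over the whole list of 15 transcription factors, the median rho with IGF2BP3 was -0.10 and 6 were positive (median 0.01 over 43 livers). CDKN1C, an imprinted inhibitor of the cell cycle, had a rho of 0.60 with GPC3. Over the 10 tested imprinted genes the median rho with GPC3 was 0.30 and 8 were positive.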
